A study of Homo sapiens with 3 samples.

Results

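The wide EZH2-only domains are the EZH2 peaks of PANC-1 cells that are wider than 1000 bp and share no base with a PHF13 peak. Of the 21639 peaks in the EZH2 list, 1537 met this rule, which is 7.1% of the peaks, and they covered 2.41 Mb. They came from 1659 EZH2 peaks over 1000 bp, of which the other 122 shared bases with PHF13. PANC-1 is an established human pancreatic ductal carcinoma line. The cells were wild type, and no treatment is listed in the labels. Chromatin was immunoprecipitated with an antibody against EZH2 in 1 library and against PHF13 in another. The study names a library of input chromatin, made with no antibody, as the control for peak calling. Since there was 1 library per antibody, no value below has a replicate error and no p-value is given. The 95% Wilson intervals describe counting error in these lists only.

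EZH2 is the catalytic subunit of Polycomb repressive complex 2 (PRC2), which methylates lysine 27 of histone H3 and holds genes silent. In vertebrate genomes PRC2 is known to gather at CpG islands, which are stretches of GC-rich sequence that kept their CpG dinucleotides and often hold transcription start sites, and many of its best-known targets are regulators of development. PHF13 is a PHD finger protein that recognises methylated lysine 4 of histone H3, a mark of active and bivalent promoters.

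The sequence beneath the domains is shown first, because most domains shared a high CpG content. The windows of 300 bp are centred on the summit, the position with the most fragments, of 3 of the 10 widest domains (the plus strand of GRCh37, also called hg19, is printed 5′ to 3′, and capitals mark each CpG). The BARX2 window, at chr11:129243283-129243582, lay between genes, with the summit 2309 bp upstream of the start of this homeobox gene, and held 25 CpGs. The CYP26B1 window, at chr2:72375174-72375473, lay between genes, 332 bp upstream of a start of this retinoic acid-degrading enzyme, and held 10 CpGs. The LINC01798 window, at chr2:66805229-66805528, lay in an intron of a long non-coding RNA gene, with the domain 66793 bp from the closest protein-coding start, that of MEIS1, and held 18 CpGs. In that order, the windows kept 0.761, 0.535 and 0.691 of the CpGs expected from their base composition. All 3 lay below the median of 0.829 that the domains had over 500 bp at the summit. The CYP26B1 and LINC01798 windows also lay below the lower quartile of 0.729.
BARX2: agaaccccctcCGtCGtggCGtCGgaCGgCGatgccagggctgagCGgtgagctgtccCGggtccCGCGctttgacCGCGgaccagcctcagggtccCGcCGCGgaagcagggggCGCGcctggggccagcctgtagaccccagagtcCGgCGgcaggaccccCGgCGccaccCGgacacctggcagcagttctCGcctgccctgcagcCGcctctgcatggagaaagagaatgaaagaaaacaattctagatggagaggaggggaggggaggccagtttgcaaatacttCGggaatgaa
CYP26B1: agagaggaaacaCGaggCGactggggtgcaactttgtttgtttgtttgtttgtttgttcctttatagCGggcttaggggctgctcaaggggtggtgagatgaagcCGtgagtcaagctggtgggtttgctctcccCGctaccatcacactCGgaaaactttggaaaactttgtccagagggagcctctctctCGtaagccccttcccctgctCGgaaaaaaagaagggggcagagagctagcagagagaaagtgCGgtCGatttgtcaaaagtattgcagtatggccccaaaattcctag
LINC01798: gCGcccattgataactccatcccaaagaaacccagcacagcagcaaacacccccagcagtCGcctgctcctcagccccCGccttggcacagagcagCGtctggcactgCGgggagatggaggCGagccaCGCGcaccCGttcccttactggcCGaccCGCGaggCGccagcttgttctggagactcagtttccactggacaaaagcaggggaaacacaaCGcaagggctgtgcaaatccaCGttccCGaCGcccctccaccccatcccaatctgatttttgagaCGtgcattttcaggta

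The domains were 1001 to 3423 bp wide, with a median of 1501 bp and quartiles of 1240 and 1836 bp. Width was used to choose them, so these values only describe the group. Just inside the limit lay the domain of 1001 bp at RASGEF1B, with a fold enrichment of 4.70, and the domains of 1002 bp at TP73 and at AVPR1A, with folds of 3.94 and 4.37. Just outside lay a peak of 1000 bp at KBTBD12, with a fold of 3.63, and peaks of 998 and 997 bp, with folds of 3.21 and 4.32. The values on both sides of the limit overlapped, so 1000 bp is a working limit within a continuous range.

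Domains were tall as well as wide. The median summit held 73 fragments (range 23 to 296), and the EZH2-only peaks of up to 1000 bp held 23 at the median. Within the domains, the number of fragments at the summit went with width (Spearman rho 0.62 over 1537 domains), but fold enrichment did not (rho -0.02). Both quantities come from the same library and the domains are not independent replicates, so these are descriptions. Median fold enrichment, the deposited ratio of the pileup to the local background at the summit, was 3.91 in the domains and 3.04 in the narrow EZH2-only peaks. The median −log10 q was 18.1 in the domains and 3.58 in the narrow peaks.

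The local background was also high at the domains. This background is the local value, in fragments, that peak calling set for the summit, and it was solved here from the deposited fold and p. Whether it came from the input or from the EZH2 library itself was not tested, so it is not read here as input chromatin. Its median was 18.1 fragments in the domains (range 4.83 to 114), which is 4.1 times the floor of 4.42 fragments set by the genome-wide mean, and 6.64 in the narrow peaks. None of the domains sat at the floor, whereas 17.2% of the narrow peaks did. Among summits with a GC content of 60 to 70%, the medians were 17.8 in 530 domains and 9.63 in 1970 narrow peaks. In PHF13 peaks of the same GC content, the median background was 5.86 fragments over a floor of 4.23. The part of this background in the width of the domains was not tested.

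**Figure D1:**
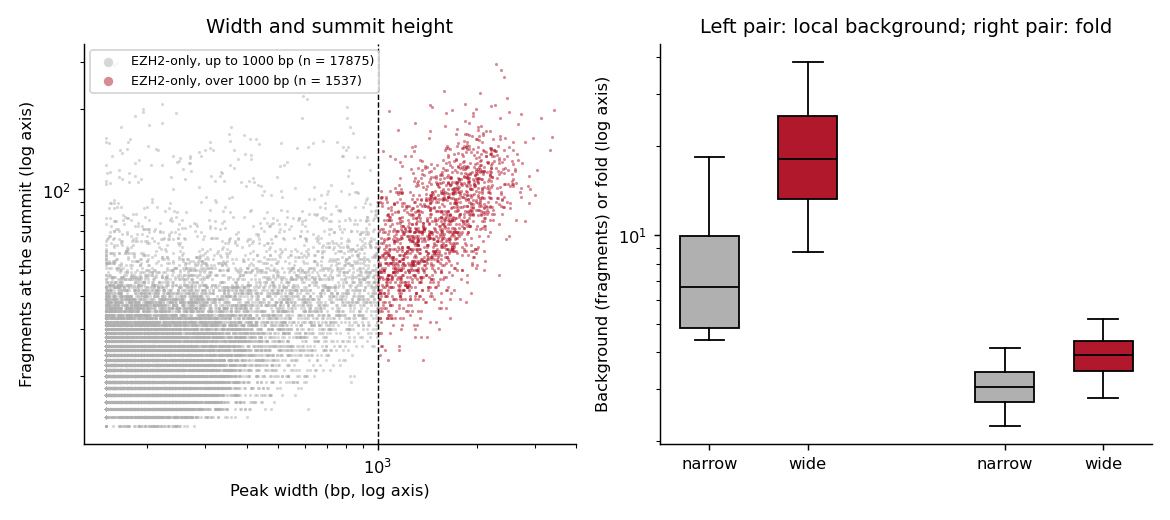
Left, the width of each EZH2-only peak (bp, log axis) against the fragments at its summit (log axis), with the domains over 1000 bp in red and the dashed line at the limit. Right, the local background (left pair) and the fold enrichment (right pair) of narrow and wide peaks on a log axis, with boxes for the quartiles, a line for the median and whiskers from the 5th to the 95th percentile. The domains sit higher in fragments (median 73 against 23) and in background (18.1 against 6.64), and their folds overlap those of the narrow peaks (3.91 against 3.04).

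CpG-island sequence lay under nearly all domains. It was found in 1478 of 1537 domains, 96.2% (95.1 to 97), where island sequence spans 500 bp or more, is at least 55% GC and keeps at least 0.65 of the CpGs expected from its base composition (the CpG ratio). Among the narrow EZH2-only peaks the share was 15.1% (14.6 to 15.7), and among the 122 wide peaks shared with PHF13 it was 52.5% (43.7 to 61.1). The median domain had 76.8% of its bases in island sequence, 65.4% GC, a CpG ratio of 0.759 and 119 CpG dinucleotides. The corresponding GC contents were 51.0% in narrow peaks and 56.1% in wide shared peaks, and the CpG ratios were 0.246 and 0.659. The CpG ratio of the domains did not go with their width (rho 0.03). The number of their island bases did (rho 0.61), but these bases are part of the width, so this value is partly set by construction.

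These features changed gradually across the limit of 1000 bp. Island sequence lay under 6.44% of the EZH2-only peaks of 150 to 200 bp, 62.5% of those over 500 and up to 750 bp, 82.3% of those over 750 and up to 1000 bp, and 93.3% of the class just above the limit. Of the 41 domains over 2500 bp, 41 had it. The median CpG ratio of the 500 bp at the summit was 0.215 in the narrowest class, 0.755 just below the limit and 0.850 in domains over 1500 and up to 2000 bp, and it was lower again, 0.781, in those over 2500 bp. Sequence present more than once in the genome showed the opposite course. It lay under 31.2% of the narrowest peaks and under 47 domains (3.06%), and under 44.3% of the wide peaks shared with PHF13.

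**Figure D2:**
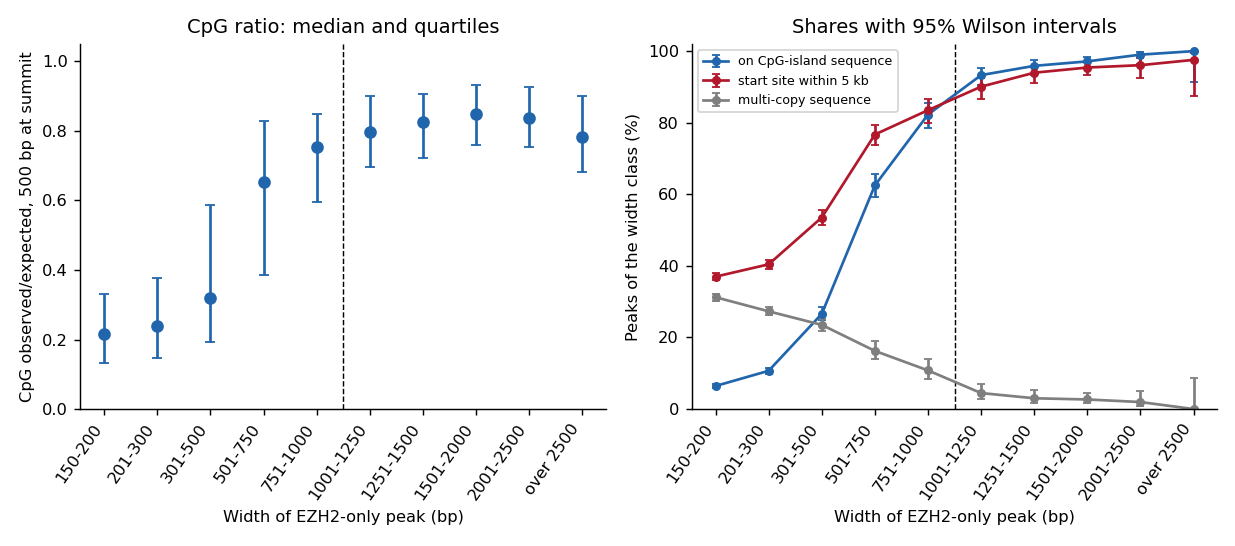
EZH2-only peaks in 10 classes of width (bp), with the dashed line at 1000 bp. Left, the CpG observed/expected ratio of 500 bp at the summit, with points for the median and bars for the quartiles. Right, the share of peaks (%) on CpG-island sequence, within 5 kb of a start site and on multi-copy sequence, with 95% Wilson intervals. Island share climbs from 6.44% to 100% over the classes, with 82.3% just below the limit and 93.3% just above it.

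Seen from the islands, the domains took a minority. Of the 29653 island sequences in the genome, 1640 overlapped a domain, which is 5.53%. The share was 7.85% (7.46 to 8.27) among the islands that hold a start site and 2.49% (2.23 to 2.77) among those that hold none. It was 1.67% for islands of up to 750 bp, 8.16% for those over 1000 and up to 1500 bp and 19.6% for those over 2000 and up to 3000 bp, and 16.3% for those over 3000 bp, although a wide domain also has more room on a long island. Where they met, the median island was 1255 bp long. The islands had a median of 90.1% of their length inside a domain, with a lower quartile of 69.4%. In turn, the median domain had 76.8% of its bases in island sequence, so the extents overlapped but did not coincide.

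Most domains lay over gene starts. A start site, meaning the 5′ end of any annotated transcript, lay inside 1240 domains, 80.7% (78.6 to 82.6), and within 5 kb of 1442, 93.8% (92.5 to 94.9). Starts lay inside 6.84% of the narrow EZH2-only peaks and 39.3% of the wide shared peaks. A protein-coding gene started within 5 kb of 1319 domains, a long non-coding RNA gene but no protein-coding gene started within 5 kb of 100, and no start lay within 5 kb of 95. The summit was in an exon in 43.5% of domains, in an intron in 41.6% and between genes in 14.9%. The median summit was 245 bp from the closest start.

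The domains extended further into genes than upstream of them. In the 1132 domains that contain a protein-coding start, the median reach was 629 bp upstream of the start closest to the summit and 939.5 bp downstream. The summit lay downstream of that start in 68.8% (66.1 to 71.4), at a median of 111 bp, and within 250 bp of it in 60.4%. At 1000 bp downstream 44.9% of these domains still covered the position, and 16.7% did so at 1000 bp upstream. Protein-coding starts on both strands were rare, in 30 domains (1.95%), and 208 (13.5%) held protein-coding or non-coding starts on both strands.

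**Figure D3:**
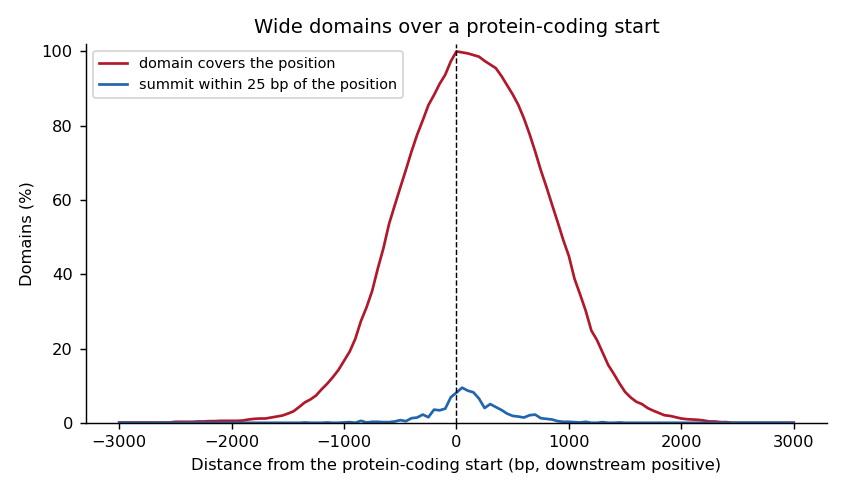
The share of the 1132 domains with a protein-coding start (%) that cover each position from 3000 bp upstream to 3000 bp downstream of the start closest to the summit (red), and the share with their summit within 25 bp of it (blue). By construction the red line is 100% at the start. It falls off more slowly downstream, with 44.9% at 1000 bp downstream and 16.7% at 1000 bp upstream.

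The domains away from starts were narrower and less CpG-rich. The 95 domains with no start within 5 kb had a median width of 1314 bp and a median CpG ratio of 0.660, and 67 of them held island sequence. The 1319 domains near a protein-coding start had medians of 1531 bp and 0.766. The farthest, at chr12:115889360-115890450, was 1091 bp wide with a fold of 5.10 and lay 88542 bp from any start, and it still had a CpG ratio of 0.776. The 59 domains without island sequence had medians of 52.0% GC and 0.406 for the CpG ratio, and 14 of them were on multi-copy sequence. The widest of them, upstream of the ribosomal protein gene RPL38, measured 2165 bp with a fold of 3.65 and a CpG ratio of 0.314.

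The widest domain of all was at EMX1, a homeobox gene of the forebrain, at chr2:73142771-73146193, with 3423 bp, 198 fragments over a background of 72.6 and a fold of 2.70. Its bases were 100% island sequence. BARX2, another homeobox gene, had 3373 bp and a fold of 2.89. CYP26B1, which degrades retinoic acid, had 3329 bp and a fold of 3.07, and IHH, a Hedgehog ligand, had 3128 bp and a fold of 3.15. The domains at NGFR, a neurotrophin receptor, at SLC30A3, a zinc transporter gene, and at LRP2, an endocytic receptor, measured 3054, 3009 and 2959 bp. GFI1, a zinc finger repressor of blood cells, had 2899 bp, and CCNO, a cyclin of multiciliated cells, had 2881 bp. The tenth, of 2870 bp, lay at LINC01798. Their folds, from 2.64 to 3.53, were all below the median of the domains, and their backgrounds, from 28.4 to 72.6 fragments, were all above it.

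The domains with the highest fold were a different set. The highest, 14.9, was at chrY:21153647-21155054, over the start of the processed pseudogene CD24P4, where 103 fragments stood over a background of 5.97, and a PHF13 peak lay 279 bp away. The next was at BMI1, which encodes a core subunit of Polycomb repressive complex 1, at chr10:22610539-22611996, with 203 fragments over 21.3, a fold of 9.14 and the highest −log10 q of the domains, 117. The third, with a fold of 6.78, lay 45897 bp from any start, on sequence with a median of 14 copies and a CpG ratio of 0.189. The next 6 were at B3GNT4 (6.59), SLAIN1 (6.31), ZBTB46 (6.31), CA7 (6.22), SDK1 (6.18) and NDST3 (6.14), all with CpG ratios of 0.641 or more. The tenth, with a fold of 6.12, was on sequence with a median of 3 copies near FOXD4L4. Copy number therefore differed within this set, and 2 of the 10 were multi-copy in GRCh37. Copies were counted in that assembly only. Reads from a copy that it lacks, also at the pseudogene on chromosome Y, could not be told apart.

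Genes were then counted. A domain lay within 5 kb of a start of 1362 of 20162 protein-coding genes, 6.76%, and these are called marked genes here. The share was 9.05% among the 14083 genes with a start in island sequence and 1.43% among the 6079 others. Of the marked genes, 1309 had 1 domain, 50 had 2 and 3 had 3. Any EZH2 peak, wide or not, lay within 5 kb of 23.6% of genes. The gene lists below were compared with 6.76% for all genes and with 9.05% for genes that start in an island, and were not tested further.

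Developmental transcription factors were marked often. Of 355 genes in 9 such families, 90 were marked, 25.4% (21.1 to 30.1), and among the 282 that start in an island 80 were, 28.4%. The family lists share members, since HOX genes and some PAX genes are also homeobox genes, so their counts cannot be added up. Homeobox genes gave 61 of 203, 30% (24.2 to 36.7), with the widest domains at EMX1, BARX2, LHX9 (2373 bp, fold 2.14) and NKX6-2 (2350 bp, fold 4.06). PAX genes gave 4 of 9, among them PAX5, which drives B-cell fate, with 2506 bp, and PAX2, a kidney factor, with 1911 bp. SOX genes gave 5 of 20, led by SOX5 with 2247 bp, and lineage bHLH genes gave 10 of 46, among them NEUROD2 (2077 bp) and NHLH2 (2019 bp), both of neurons. Forkhead genes gave 7 of 46, T-box genes 2 of 17, GATA genes 1 of 6 (GATA5) and ZIC, GLI and GLIS genes 2 of 12. The intervals of the T-box, GATA and ZIC, GLI and GLIS genes include 6.76%, and that of the forkhead genes with island starts (7.25 to 29.7%) includes 9.05%. The 95 domains near such regulators held a start inside in 63 cases, and the 1224 domains near other protein-coding genes only in 1098 cases. This difference in position was not tested. Their median widths were 1517 and 1535 bp and their median backgrounds 22.1 and 17.9 fragments, and 95 of the 95 lay on island sequence.

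The HOX clusters, the best-known Polycomb targets, had few domains. They gave 4 of 39 genes, 10.3% (4.06 to 23.6), an interval that includes the share of all genes, and these were HOXA2, HOXA3, HOXA10 and HOXA11 on chromosome 7, at 3 domains of 1556, 1413 and 1333 bp. No gene of the other 3 clusters was marked. Narrower or shared EZH2 peaks lay near 10 further HOX genes, for example a peak of 980 bp at HOXD3. At HOXB9 the closest EZH2 peak was 190407 bp away and a PHF13 peak lay at 185 bp. The HOXA3 domain had 121 fragments over a background of 52.2, with a fold of 2.29. Only peaks of a narrow-format list, called over a local background, were counted. Few domains therefore do not mean little EZH2 at these clusters, which was not measured.

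Genes of secreted signals formed another group with high shares. WNT ligands gave 8 of 19, 42.1% (23.1 to 63.7), with domains of 2664 bp at WNT7A and 2262 bp at WNT3A. FGF ligands gave 7 of 22, with 2673 bp at FGF3, and ephrins and Eph receptors 7 of 22, with 2210 bp at EFNA3. Ligands of the BMP, GDF and inhibin group gave 7 of 32, with 2610 bp at GDF7 and 2113 bp at BMP4. Frizzled receptors and secreted Wnt antagonists gave 4 of 15, and 3 of the 14 with an island start (7.57 to 47.6%), an interval that includes 9.05%. Semaphorins, slits, netrins and their receptors, which guide axons and vessels, gave 15 of 49, 30.6% (19.5 to 44.5), with 2716 bp at SEMA5B.

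Several groups of genes of neurons and of the matrix also had shares above that of all genes. Potassium channel genes gave 24 of 82, 29.3% (20.5 to 39.9), with 2476 bp at KCNA2. Glutamate and GABA receptor genes gave 11 of 47, with 2641 bp at GRIN2C, and neuropeptides and their receptors 11 of 46, with 2553 bp at the somatostatin receptor gene SSTR2. Collagen genes gave 14 of 44, 31.8% (20 to 46.6), with 2572 bp at COL24A1, and 1 domain of 1978 bp covered the shared start region of COL4A1 and COL4A2. Secreted metalloproteinases of the ADAMTS and MMP families gave 9 of 47, with 2719 bp at ADAMTS1. Amine receptor genes gave 4 of 40 and classical cadherins 3 of 23, with intervals that include 6.76%. The clustered protocadherins gave 0 of 53 (0 to 6.76%), although narrower or shared EZH2 peaks lay near 11 of them. This interval reaches the share of all genes. Only 15 of them start in an island, and 0 of these were marked (0 to 20.4%), an interval that includes 9.05%.

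Few genes that every cell uses were marked. Of 82 ribosomal protein genes, 70 start in an island and 1 was marked, RPL38, by the upstream domain without island sequence described above. Proteasome genes gave 0 of 39 (0 to 8.97%) and subunits of respiratory complex I 0 of 37 (0 to 9.41%), and both intervals include 6.76%. The interval of the ribosomal protein genes, 0.216 to 6.59%, lies below it, and that of the 70 with island starts, 0.253 to 7.66%, lies below 9.05%. Genes named ZNF gave 6 of 508, 1.18% (0.542 to 2.55), with 428 of them starting in an island. Olfactory receptor genes, of which 4 start in an island, gave 0 of 399. Keratin-associated protein genes, of which 0 start in an island, gave 1 of 94, 1.06% (0.188 to 5.78). That interval includes the 1.43% of genes without an island start.

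**Figure D4:**
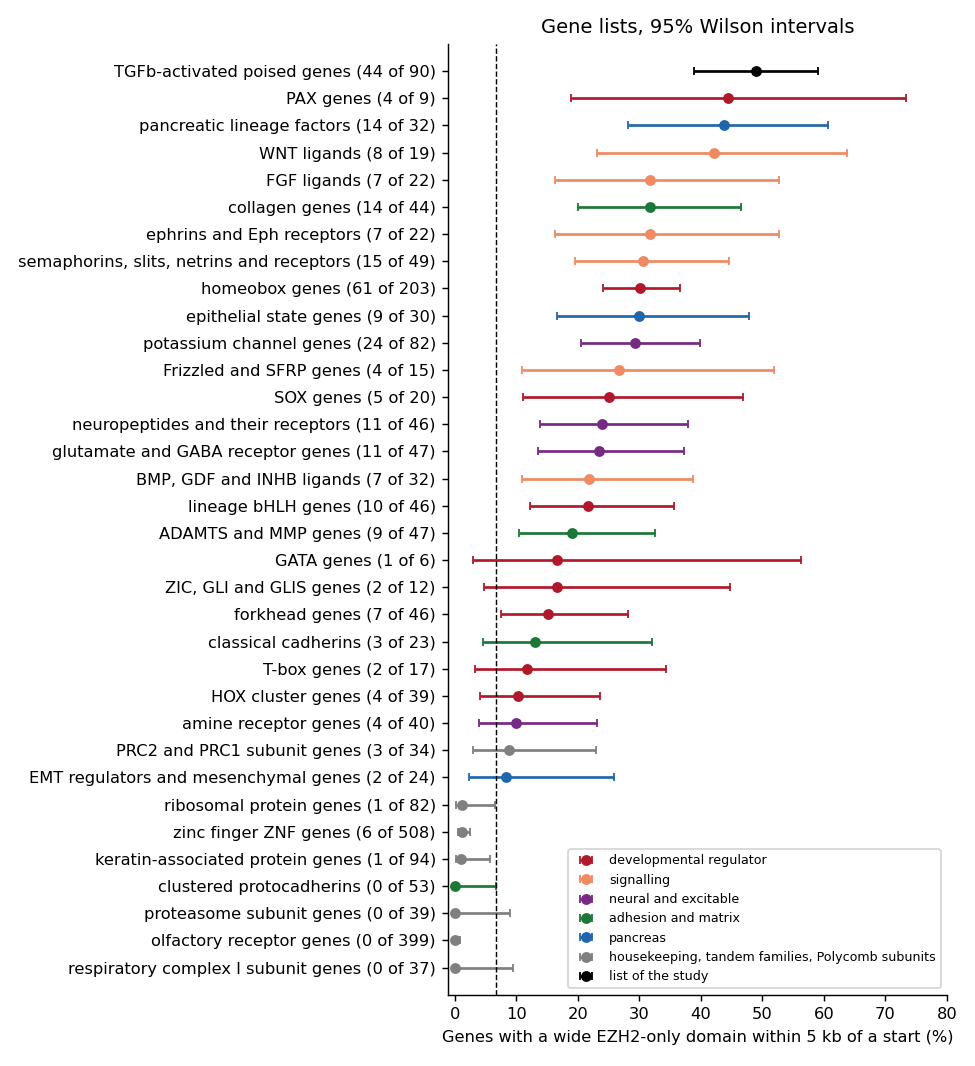
The share of genes (%) in each of 34 lists with a wide EZH2-only domain within 5 kb of a start, with 95% Wilson intervals and the counts in the labels. Colours give the kind of list, and the dashed line marks the 6.76% of all protein-coding genes. The lists of the study's poised genes, PAX, pancreatic and WNT genes lie at 42.1% to 48.9%, and housekeeping and tandem families lie at or below 1.22%. The olfactory receptor and keratin-associated families have few or no island starts, and all genes without an island start lie at 1.43%.

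Because PANC-1 derives from the pancreas, lineage factors of this organ were examined singly. Of 32 such factors, 14 were marked, 43.8% (28.2 to 60.7). The endocrine factors among them included NEUROG3, which starts the endocrine programme (1927 bp), INSM1 (2058 bp), PAX6 (1563 bp), MNX1 (1286 bp), NKX6-1 (1365 bp), NKX6-2, and MAFA (1553 bp), which acts in hormone-producing cells. Other marked factors were ONECUT1 (1145 bp), PROX1 (1486 bp), NR5A2 (1267 bp) and FOXA3 (1701 bp, fold 5.78). Narrower or shared EZH2 peaks were found at 11 others. These included PDX1, the early master regulator of the organ, with a widest peak of 943 bp, GATA6 with 720 bp, ISL1 with 705 bp, NEUROD1 with 513 bp, GATA4 with 342 bp, SOX9 with 308 bp and HNF4A with 187 bp. RFX6 had a peak of 1884 bp, but it shared bases with PHF13. The other 7 had no EZH2 peak within 5 kb, and HES1, RBPJL, FOXA2, NKX2-2, PTF1A and BHLHA15 were among them.

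Epithelial and mesenchymal genes were examined because PANC-1 cells can pass from one state to the other. Of 30 epithelial genes, 9 had a domain, 30% (16.7 to 47.9), beside 6.76% of all protein-coding genes. They were OVOL1 (2218 bp) and OVOL2 (1728 bp), repressors of the mesenchymal programme, ESRP1 (1691 bp), a splicing factor of epithelia, DSP, TJP1, MARVELD3 and EPCAM, of junctions and adhesion, LAMA3 of the basement membrane, and the membrane protease gene ST14. CDH1, which encodes E-cadherin, had a peak of 870 bp, below the limit, and CDH3 had one of 845 bp. GRHL1, GRHL2, GRHL3, ESRP2, KRT8, KRT18 and CLDN4 had no EZH2 peak within 5 kb. Of 24 regulators and genes of epithelial to mesenchymal transition (EMT), 2 were marked, 8.33% (2.32 to 25.8). These were FN1, the fibronectin gene, with 2248 bp, and THY1 with 1577 bp. ZEB2 (863 bp), CDH11 (765 bp), PRRX1 (618 bp) and SNAI2 (321 bp) had narrower peaks, and SNAI1, ZEB1, TWIST1 and VIM had none within 5 kb. The intervals of both groups overlap, and their difference was not tested.

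The study listed 90 genes that are poised in PANC-1 and activated by TGFβ. Of these, 44 were marked, 48.9% (38.8 to 59.0), and 79 had an EZH2 peak of any width. The list was chosen by the study from histone marks in the same cell line, including a mark that EZH2 itself makes, so it is not independent of EZH2. The widest domains were at PRR5L (2579 bp), IQGAP2 (2572 bp), LBH (2365 bp) and GNAS (2161 bp). The domains near these genes resembled the others, with a median width of 1529 bp, a fold of 3.97 and a CpG ratio of 0.766. In 6 genes with no domain, the widest EZH2 peak within 5 kb was over 900 bp, for example 967 bp at PDE2A and 2593 bp, shared with PHF13, at GPC4.

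Genes of the Polycomb complexes themselves were marked at about the share of all genes. Of 34, all of which start in an island, 3 were marked, 8.82% (3.05 to 23), beside 6.76% of all genes and 9.05% of genes that start in an island. All 3 encode subunits of PRC1 complexes: BMI1, PCGF5 (1521 bp, fold 3.60) and KDM2B (1172 bp, fold 4.49). None of the genes of the PRC2 core, EZH2, EED, SUZ12, RBBP4 and RBBP7, was marked. The chromodomain gene CBX8 had an EZH2 peak of 936 bp.

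Domains seldom came in groups. When domains with gaps of at most 20 kb were grouped, 1432 stood alone, 48 pairs were formed and 3 groups held 3. One group of 3 lay at MNX1, over the gene start (1286 bp, fold 4.92) and at islands on both sides (1165 bp, fold 5.23, and 1076 bp, fold 3.21). Another spanned AGAP2, CDK4 and CYP27B1 on chromosome 12 (1760, 1666 and 1431 bp). The pair with the most bases in domains, 4868 bp, was at PAX5. Narrower EZH2 peaks bordered many domains, and 413 domains (26.9%) had another EZH2 peak within 1 kb. When EZH2 peaks with gaps of up to 1000 bp were joined, the median joined region was 1696 bp and the widest 4054 bp, at 2 neighbouring domains beside MIR124-3 on chromosome 20.

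**Figure D5:**
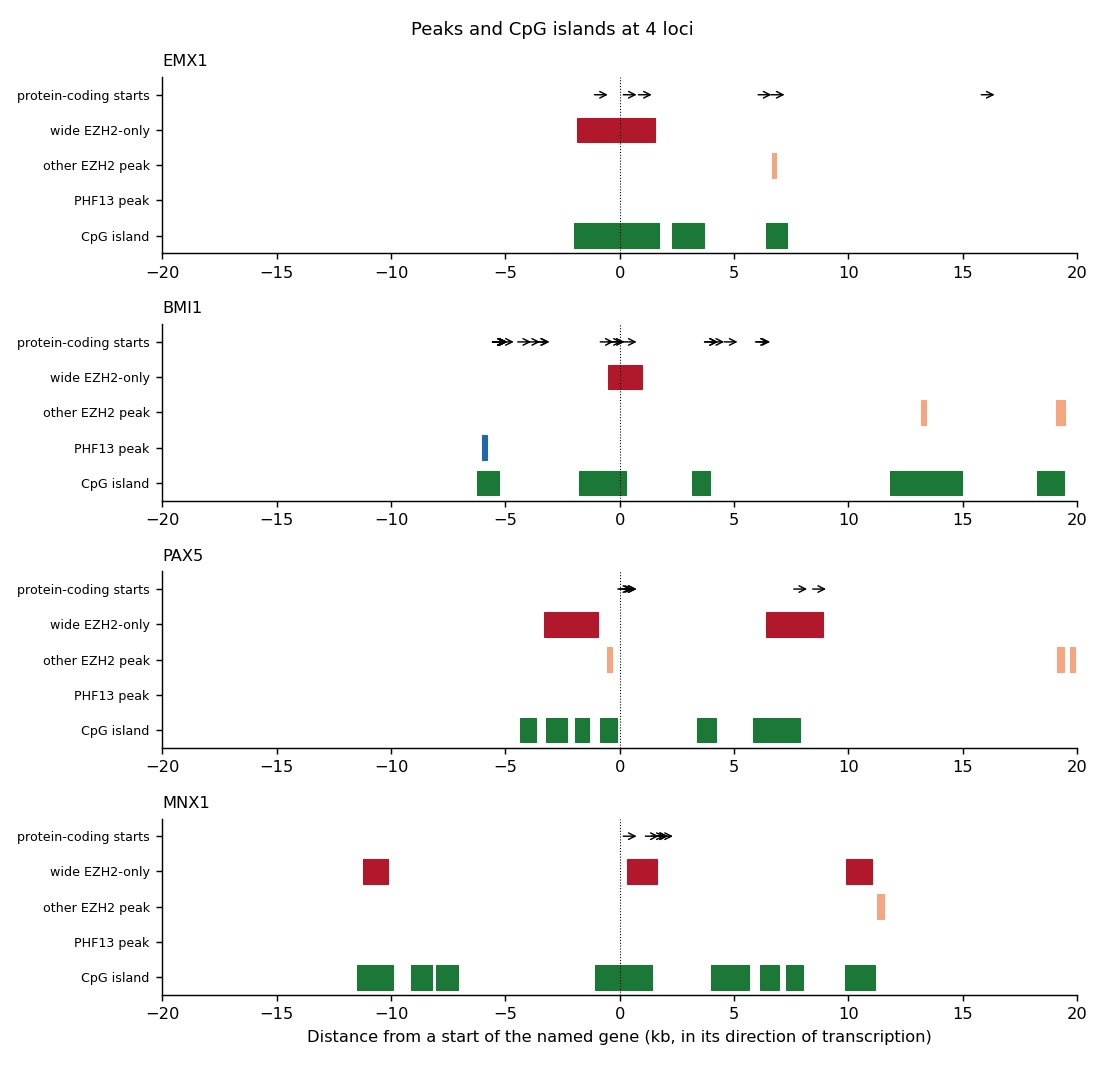
Wide EZH2-only domains (red), other EZH2 peaks (orange), PHF13 peaks (blue), CpG islands (green) and protein-coding starts (arrows) within 20 kb of a start of EMX1, BMI1, PAX5 and MNX1, by distance in kb along the direction of transcription. The EMX1 domain of 3423 bp spans nearly a whole island, and the 3 MNX1 domains of 1076 to 1286 bp sit on 3 separate islands. A PHF13 peak is present at BMI1 only, on a separate island upstream.

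PHF13 was distant from most domains. The rule removed every domain that touched a PHF13 peak, and a wide peak touches a neighbour more easily than a narrow one, so the distances below are partly set by the rule and are a description. The closest PHF13 peak was 33 bp away at NTNG2 and a median of 65.9 kb away. It lay within 5 kb of 57 domains, 3.71% (2.87 to 4.78), and of 11.4% (11 to 11.9) of the narrow EZH2-only peaks. PHF13 peaks also lay within 5 kb of a start of 160 of the 1362 marked genes, 11.7% (10.1 to 13.6), compared with 21% of all protein-coding genes and 23.4% of genes with narrow EZH2-only peaks and no domain. The gene shares are partly set by the rule as well. The 57 domains with PHF13 nearby had a median width of 1554 bp and a CpG ratio of 0.768, and 10 of them lay on multi-copy sequence, compared with 47 of all 1537.

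Short motifs were counted in the sequence at the summits. The GC box GGGCGG was found on either strand in the 500 bp at the summit of 83.4% of domains, in 21.6% of narrow EZH2-only peaks and in 62.3% of 500 bp windows at the starts of all protein-coding genes. TATAAA, the core of the TATA box, was found in 3.77%, 19.8% and 14.0%, and CCAAT in 23.2%, 47.1% and 44.8%. The AP-1 type motif TGANTCA was found in 3.58%, 11.6% and 9.08%. GAGAG, which is bound by the GAGA factor of flies, was found in 79.8%, 75.3% and 79.3%, and CACGTG, the E-box, in 6.83%, 6.03% and 11.1%. Such matches describe letters and not binding sites. The 3 sets also differed in GC content, with medians of 70.6%, 49.0% and 61.6% in these windows, and its part in the motif shares was not tested.

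The domains were spread over all chromosomes, with shares of marked genes from 2.03% on chromosome 19 to 10.6% on chromosome 4 among chromosomes other than Y, which held 1 domain. Per island, chromosome 11 had the highest share, with 8.95% of its islands under a domain, and chromosome 19 the lowest of them with 1.5%. The 120 domains of chromosome 11 also had a median background of 24.9 fragments against 17.6 on the other chromosomes, and a lower median fold (3.48 against 3.93). The part of this background in the share of islands was not tested.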

How the data were processed

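ChIP-seq libraries of PANC-1 cells (EZH2, PHF13 and input, 1 each, replicate 1) were represented by the 2 deposited peak lists. Per the labels and the study's methods, the authors used Trim Galore 0.4.1 for trimming, Bowtie2 2.4.1 for alignment to hg19, Picard to drop duplicate pairs and MACS2 2.2.7.1 to call peaks against the input. No mapping-quality filter is stated. The methods describe broad calling for EZH2, but its deposited peaks carry summits in the narrow format, and a broad call could give other widths. The deposited fold enrichment is a ratio at the summit, the deposited p-value and q-value are on the −log10 scale, and the deposited score was not used. Read depth is unknown from the lists. The lowest −log10 q is 1.31.

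Fragments and background at each summit were solved from fold and p (relative error within 0.0001 in 100% of EZH2 peaks). Peaks were compared with GRCh37 and GENCODE release 44 mapped to it. Islands were unions of 200 bp windows. Looser islands needed 50% GC, a ratio of 0.6 and 200 bp. A summit was multi-copy when the median 24-mer of its 100 bp occurred more than once in the genome. Intervals are Wilson intervals and cover counting error only. Functions were tested on simulated intervals. Python 3.11.15, numpy 2.4.6, pandas 2.3.3 and scipy 1.17.1 were used. Members, gene lists and comparisons were chosen with earlier results of these data known. Named genes were those at the 10 widest and 10 highest-fold domains, the widest per list, pancreatic, epithelial, EMT and Polycomb genes with or without a domain, the largest groups, and the domains nearest the limit and farthest from a start. Printed windows left out chromosome 8 and windows with 30 or more bases of untranslated region, which removed 6 of the 10 widest domains. Some genes and sequences are not reported here. Alternatives changed the width limit, the peak threshold, the overlap, the joining of peaks, copy number, the set of starts, the distance and the island definition.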

Additional observations from a re-analysis of the deposited data

How the results depend on the processing

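No paired analysis was possible because each antibody had 1 library and no replicate. The cause of each difference below was not tested, beyond what the alternative itself removes or adds. With the limit at 750 bp, 91.3% of domains had a start within 5 kb, 75% held a start, 92.8% lay on island sequence and 8.42% of protein-coding genes were marked. With the limit at 1500 bp, 769 domains were left, with 95.7%, 86.7% and 97.8% for the same shares of domains, and 3.60% of all, 14.8% of homeobox and 26.7% of poised genes were marked. At 2000 bp, 245 domains were left, with 96.3%, 89.4% and 99.2%, a median CpG ratio of 0.770, and 1.16%, 3.94% and 5.56% of those genes. With EZH2 peaks joined over gaps of up to 500 bp, the shares of domains were 90.1%, 75.6% and 90.3%, the CpG ratio was 0.733, and 8.42% of all and 61.1% of poised genes were marked. With starts of protein-coding transcripts only, 84.5% of domains had a start within 5 kb and 70.9% held one, and with 1 start per gene the shares were 83.1% and 57.0%, with 5.84% of genes marked. A distance of 1 kb gave 89.7% of domains with a start, 6.38% of all and 21.7% of homeobox genes, and 4.81% of domains near a developmental regulator. A distance of 10 kb gave 96.3% of domains and 7.26% of genes. Looser islands lay under 98.6% of domains. The other 58 comparisons, which include a stricter peak threshold, single-copy domains only and a distance to PHF13, stayed within the counting interval of the value reported, or within 1.5 times a count. The lists hold no read depth, so peaks below the authors' threshold were not analysed here.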

Other observations

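Gene-name families were scanned after the values were seen, over all stems with at least 8 protein-coding genes, so the families named here were picked for their high share and are a description only. The KCNK genes also belong to the potassium channel list and the LHX and NKX genes to the homeobox list, so their shares repeat members counted there. Two-pore potassium channel genes (KCNK) had a domain within 5 kb in 8 of 15, among them KCNK2, KCNK3 and KCNK9. LIM homeobox genes (LHX) had one in 4 of 8, and SHISA genes, which encode membrane proteins, in 4 of 8 (SHISA2, SHISA3, SHISA7 and SHISA8). Of 12 genes whose name starts with HS and a digit, 6 had one, all of which encode heparan sulfate sulfotransferases (for example HS3ST5 and HS6ST3). NKX genes gave 6 of 14, calcium channel subunit genes (CACNA) 5 of 14 and adenylate cyclase genes (ADCY) 3 of 10. All these shares lie above the 6.76% of all protein-coding genes, as the choice of families made certain.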
